A study of Homo sapiens with 4 samples.

Results

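FOXK2 peaks of OVCAR5 cells that lay between genes, within 20 kb of a transcription start site (TSS) and outside annotated repeats and CpG islands, are described here. A peak was taken where both its general and its detailed annotation read intergenic and its absolute distance to the nearest TSS was at most 20 kb. These near-gene intergenic peaks numbered 845 of 12471 (6.78%) in replicate 1 and 1866 of 27281 (6.84%) in replicate 2. They made up 29.8% of the 2839 intergenic peaks free of repeats and CpG islands in replicate 1, and 28.7% of the 6511 in replicate 2.

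The study mapped FOXK2 by chromatin immunoprecipitation and sequencing (ChIP-seq) with an antibody to the protein in OVCAR5, an established human ovarian cancer cell line. Both samples were biological replicates of a single condition, cells in culture with no treatment named, so every comparison below is between classes of peaks within a list and not between conditions. The input libraries of the 2 replicates were not analysed here. Scores were whole multiples of 0.189 in replicate 1 and 0.149 in replicate 2 for 100% of scores under 10, within 0.006, and this step was read as the worth of 1 tag (a mapped read). On that reading the weakest near-gene intergenic peak held 17 tags in replicate 1 and 22 in replicate 2, and the strongest held 180 and 413.

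The label was first set against GENCODE release 44, a gene annotation other than the deposited one. The centre of 33.0% of the peaks in replicate 1 and 33.4% in replicate 2 lay inside a GENCODE gene, so for those peaks intergenic holds only in the deposited annotation. The share was 33.4% and 32.1% among intergenic peaks 20 to 100 kb from a TSS and 30.9% and 33.0% among those beyond 100 kb. Protein-coding genes held 16.3% and 15.5%, and long noncoding RNA genes held 18.1% and 18.6%. A GENCODE promoter window, from 1000 bp upstream to 100 bp downstream of a transcript start, held 75 peaks (8.88%) in replicate 1 and 145 (7.77%) in replicate 2. Among intergenic peaks 20 to 100 kb from a TSS the share in such a window was 4.22% and 3.91%, a description only, since the distance limit of the rule bears on this share. Nearness to a gene held in both annotations. A GENCODE protein-coding TSS lay within 20 kb of 81.8% and 79.4% of the peaks, and the nearest coding gene had the same name in both annotations for 90.7% and 90.3% of those that could be compared. The nearest gene is still only a name for the place, since 23.08% and 22.99% of the peaks had 2 or more coding genes within 20 kb.

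FOXK2 is a forkhead transcription factor, a family that grips DNA through a winged-helix domain and reads a core heptamer, TGTTTAC, or GTAAACA on the other strand. FOXK proteins are known as repressors of starvation and autophagy genes that FOXO factors, which read a similar core, can turn on. Open regions between genes are often enhancers, and in epithelial cancer lines many enhancers carry TGACTCA, or TGAGTCA on the other strand, the site of AP-1, a dimer of FOS and JUN proteins.

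The strongest peaks found in both replicates are shown first, because they differ in which of these sites they hold. Each sequence is the peak of replicate 2 on the plus strand of hg38, 257 bases long, with the forkhead heptamer and the AP-1 heptamer in capitals. They lay at chr15:92804029-92804285 (nearest gene ASB9P1), chr14:22614168-22614424 (ABHD4), chr20:25179298-25179554 (ENTPD6), chr11:105047314-105047570 (CARD16), chr11:62553200-62553456 (AHNAK), chr17:55433211-55433467 (MMD) and chr7:47605017-47605273 (LINC01447).
ASB9P1: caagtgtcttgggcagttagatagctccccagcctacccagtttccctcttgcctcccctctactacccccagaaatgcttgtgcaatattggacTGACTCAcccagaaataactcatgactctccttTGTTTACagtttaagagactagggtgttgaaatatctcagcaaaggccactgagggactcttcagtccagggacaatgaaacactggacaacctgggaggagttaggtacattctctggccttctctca
ABHD4: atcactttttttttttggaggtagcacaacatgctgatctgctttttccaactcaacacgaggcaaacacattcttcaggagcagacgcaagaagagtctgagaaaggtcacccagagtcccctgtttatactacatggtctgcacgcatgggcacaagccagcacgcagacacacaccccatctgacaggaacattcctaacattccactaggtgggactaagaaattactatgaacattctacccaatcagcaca
ENTPD6: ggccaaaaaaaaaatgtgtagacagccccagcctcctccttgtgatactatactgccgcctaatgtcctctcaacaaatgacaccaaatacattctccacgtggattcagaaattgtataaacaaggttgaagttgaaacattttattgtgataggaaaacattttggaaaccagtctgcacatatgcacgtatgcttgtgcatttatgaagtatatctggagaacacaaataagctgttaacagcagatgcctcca
CARD16: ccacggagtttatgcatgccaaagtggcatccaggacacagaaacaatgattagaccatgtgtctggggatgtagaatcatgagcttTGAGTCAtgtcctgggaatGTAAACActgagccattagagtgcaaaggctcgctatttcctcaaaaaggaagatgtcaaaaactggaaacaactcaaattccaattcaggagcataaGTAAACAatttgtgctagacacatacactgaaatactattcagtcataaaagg
AHNAK: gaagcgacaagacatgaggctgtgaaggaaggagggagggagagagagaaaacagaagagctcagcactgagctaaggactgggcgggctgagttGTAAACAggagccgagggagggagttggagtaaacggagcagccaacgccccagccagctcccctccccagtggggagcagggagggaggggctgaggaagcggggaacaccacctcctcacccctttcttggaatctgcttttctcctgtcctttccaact
MMD: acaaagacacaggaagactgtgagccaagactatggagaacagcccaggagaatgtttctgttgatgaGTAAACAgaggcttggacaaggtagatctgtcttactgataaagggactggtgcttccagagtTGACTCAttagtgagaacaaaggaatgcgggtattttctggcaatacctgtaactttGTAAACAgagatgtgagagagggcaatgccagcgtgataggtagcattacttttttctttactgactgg
LINC01447: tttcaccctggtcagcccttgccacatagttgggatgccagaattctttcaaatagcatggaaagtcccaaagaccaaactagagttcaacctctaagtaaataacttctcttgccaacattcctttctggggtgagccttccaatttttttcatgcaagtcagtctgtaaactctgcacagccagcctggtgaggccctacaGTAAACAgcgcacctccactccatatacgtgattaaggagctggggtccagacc

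Both sites stood in the peaks next to ASB9P1, CARD16 and MMD, and CARD16 and MMD held the forkhead heptamer 2 times. AHNAK and LINC01447 held the forkhead heptamer without the AP-1 heptamer. The peaks next to ABHD4 and ENTPD6 held neither, although each held 2 matches to the looser forkhead core RYAAAYA. The ABHD4 peak also held 2 copies of ACATTCC, the site read by TEAD factors, and the ENTPD6 peak held 1 CACGTG E-box. Such sites were not confined to peaks without the forkhead heptamer. CARD16 and LINC01447 each held 1 ACATTCC, and AHNAK held 1 GGGCGG, a GC box.

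In score these peaks ran from near the lowest of each list to well below its strongest peak. In replicate 1 the lowest score was 3.21, the median 5.85 and the highest 34.0, and in replicate 2 they were 3.27, 7.51 and 61.4. Over all peaks the medians were 5.85 and 7.29 and the highest scores 188.3 and 387.9. HOMER scales scores within each library, so strength is compared between lists as a percentile. This is the share of the same list that scored lower, with tied peaks set at their middle rank. Scores given for named peaks are raw and cannot be compared between the replicates. The median percentile of the near-gene intergenic peaks was 49.1 in replicate 1 and 52.1 in replicate 2, so they sat at the middle of both lists. Their median focus ratio, the fraction of tags on the side of the centre where HOMER expects them, was 0.766 and 0.762, against 0.758 and 0.755 over all peaks.

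Between the replicates 650 of the 845 peaks of replicate 1 (76.9%) were overlapped by a peak of replicate 2, beside 74.9% of the whole list. In the other direction the share was 669 of 1866 (35.9%), beside 34.2% of that longer list. The differences from the other peaks were 2.15 percentage points (95% interval -0.909 to 4.98) and 1.73 points (-0.497 to 4.00), and neither passed a two-sided Fisher's exact test (adjusted p = 0.223 and 0.192). With lists of equal length the sign turned, to -0.105 and -0.531 points, and among peaks above the median score it turned in replicate 2, to -2.27 points. For 628 pairs both partners were near-gene intergenic peaks. A further 22 peaks of replicate 1 and 41 of replicate 2 were overlapped by a peak of another class, and 195 and 1197 by none. Median percentiles followed the partner. Peaks paired with a peak of their own class had a median percentile of 57.3 in replicate 1 and 77.2 in replicate 2, while peaks with no partner had 26.7 and 36.7.

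Within the 628 pairs the centres lay a median of 27 bp apart and the percentiles ran together (Spearman's rho 0.826 across 628 pairs, a description, since the pairs come from the same 2 libraries). Both partners were at or above percentile 50 of their list in 356 pairs and both below it in 103. For 162 pairs only the partner in replicate 2 was above it, and for 7 pairs only the partner in replicate 1. Percentiles come from lists of different length, so no meaning is read from this imbalance. The forkhead heptamer stood in 242 pairs (38.5%) and the AP-1 heptamer in 168 (26.8%), counted over the replicate 2 peak.

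**Figure D1:**
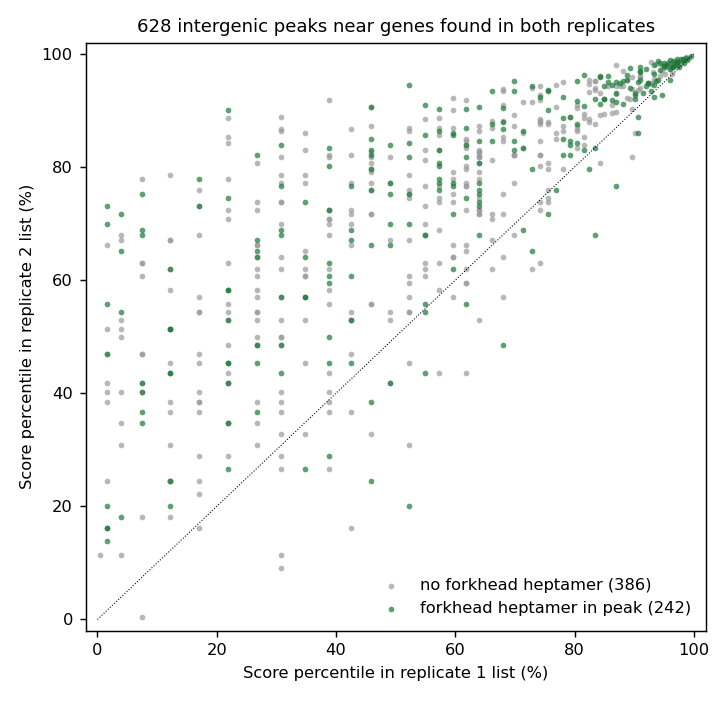
Score percentile of each of the 628 overlapping pairs of near-gene intergenic peaks in the list of replicate 1 (x axis, %) and of replicate 2 (y axis, %), 1 point per pair, with the line of equal percentiles dotted. The 242 pairs with a forkhead heptamer in the replicate 2 peak are green, and 162 pairs lie above percentile 50 in replicate 2 only, against 7 in replicate 1 only. The lists differ in length, so no meaning is read from this imbalance.

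The forkhead heptamer marked the centres of these peaks. Within 100 bp of the centre, on either strand, 272 peaks of replicate 1 (32.2%, 95% interval 29.1% to 35.4%) held TGTTTAC, against 2.84% of windows of the same length 2000 bp to either side. In replicate 2 the share was 536 peaks (28.7%, 26.7% to 30.8%) against 2.36%. The ratios of the shares were 11.3 and 12.2 (adjusted p = 5.11e-93 and 1.55e-183, Fisher's exact test over 24 motif tests). Over the whole lists 30.5% and 28.2% of peaks held the heptamer, and the near-gene intergenic peaks did not differ detectably from the rest, by 1.77 percentage points (-1.41 to 5.10) and 0.599 points (-1.48 to 2.77). That comparison depended on the peaks and letters taken. Among peaks above the median score the difference was 5.17 and 3.19 points (unadjusted p = 0.0350 and 0.0391, Fisher's exact test), with the core RYAAAYA 4.39 and 2.82 points (unadjusted p = 0.0128 and 0.0177, Fisher's exact test), and with lists of equal length 3.86 points in replicate 2 (unadjusted p = 0.0188, Fisher's exact test). The rest is a mixture, with 14.4% and 10.9% in promoter-TSS peaks and 35.5% (34.4% to 36.6%) and 32.6% (31.8% to 33.3%) in peaks of the remaining annotations. These include introns and intergenic peaks in repeats or CpG islands, and the difference from them was not tested. The copies lay a median of 21 bp from the centre in both replicates. The central 20 bp held 9.23 and 7.77 copies per 100 peaks, while bins more than 400 bp away held 0.178 and 0.208.

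The base that followed the heptamer was seldom a G, as in the other peaks of both lists and in flanking windows. In the peaks of replicate 1 it was A in 46.0%, T in 33.0%, C in 17.9% and G in 3.16% of 285 copies, and in replicate 2 G followed in 3.02%. In the other peaks G followed 4.62% of 3747 copies and 3.97% of 7532. Flanking windows held few copies, and G followed 3 of 49 (6.12%) and 4 of 88 (4.55%).

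Peaks with the heptamer were stronger and more often found in both libraries. In replicate 1 it stood in 36.5% of overlapped peaks and 17.9% of the others, and in replicate 2 in 37.5% and 23.8% (adjusted p = 1.30e-05 and 1.74e-08, Fisher's exact test over 32 tests). At or above the list's median score 40.0% and 33.1% held it, against 24.4% and 23.9% below (adjusted p = 1.68e-05 and 0.000105, Fisher's exact test). The other peaks of the lists went the same way. Among them 34.8% and 29.9% of the higher-scoring peaks held it, beside 30.4% and 28.1% of all. Among the 100 pairs with the highest mean percentile 62 held it, counted over the whole replicate 2 peak. By the same count 242 of all 628 pairs (38.5%) held it.

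AP-1 sites were frequent as well. TGACTCA was chosen because earlier results of these data had shown it to be frequent in these lists. Its excess over flanking windows is thus not an independent test. TGACTCA stood within 100 bp of the centre in 186 peaks of replicate 1 (22.01%, 19.3% to 24.9%) and 385 of replicate 2 (20.6%, 18.9% to 22.5%). The flanking windows held it in 2.84% and 3.16%, so the ratios were 7.75 and 6.53 (adjusted p = 9.15e-52 and 1.14e-95, Fisher's exact test). Whole lists held it in 16.4% and 16.6% of peaks, and the near-gene intergenic peaks exceeded the other peaks by 5.99 percentage points (3.24 to 8.98) in replicate 1 and 4.35 points (2.52 to 6.30) in replicate 2 (adjusted p = 3.59e-05 and 7.33e-06, Fisher's exact test). The other peaks are a mixture, with the site in 3.88% and 3.36% of promoter-TSS peaks and in 18.8% (17.9% to 19.8%) and 18.8% (18.2% to 19.5%) of peaks of the remaining annotations. The difference from the remaining annotations was not tested. Intergenic peaks 20 to 100 kb away held it at 21.6% and 20.1%, and the differences of 0.406 points (-3.19 to 4.08) and 0.532 points (-1.81 to 2.92) did not pass the test. Beyond 100 kb the share was higher, at 24.7% and 22.9%, and did not pass either (adjusted p = 0.318 and 0.177, Fisher's exact test).

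AP-1 heptamers were spread more widely than forkhead heptamers, a median of 44 bp from the centre in both replicates, with 3.08 and 2.30 copies per 100 peaks in the central 20 bp. Peaks with TGTTTAC held TGACTCA less often than peaks without it in replicate 2, at 16.4% against 22.3% (adjusted p = 0.0201, Fisher's exact test). In replicate 1 the shares were 18.0% and 23.9%, with the same sign but short of the threshold (adjusted p = 0.220, Fisher's exact test). Both heptamers stood in 49 and 88 peaks, a median of 48 bp and 40 bp apart. Neither stood in 436 peaks (51.6%) of replicate 1 and 1033 (55.4%) of replicate 2. TGACTCA stood in 23.2% of peaks at or above the median score and 20.9% below it in replicate 1 (adjusted p = 0.641), and in 23.5% and 17.5% in replicate 2 (adjusted p = 0.00867, Fisher's exact test).

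**Figure D2:**
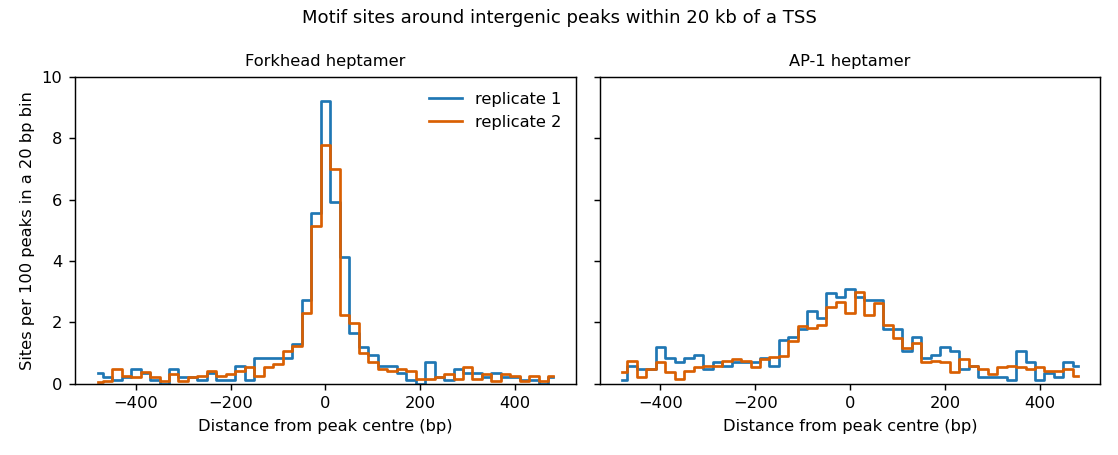
Copies of the forkhead heptamer (left) and the AP-1 heptamer (right) per 100 near-gene intergenic peaks in 20 bp bins (y axis) by distance from the peak centre in bp (x axis), with 1 line per replicate. The forkhead line rises to 9.23 and 7.77 copies in the central bin and the AP-1 line to 3.08 and 2.30 there, on a broader base.

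Other short sites were searched in the same windows, on both strands, each as its exact letters. RUNX factors read TGTGGTT, which stood in 8.17% and 8.09% of the peaks and 3.31% and 2.68% of flanking windows. TEAD factors, the partners of YAP, read ACATTCC, which stood in 7.34% and 6.27% against 2.37% and 2.60%. CACGTG, the E-box of basic helix-loop-helix proteins such as MYC and USF, stood in 5.80% and 5.47% against 2.66% and 2.36%. The ETS site CCGGAAG was rarer, at 2.37% and 1.88% against 0.710% and 0.804%, and the forkhead variant TGTTTGC stood in 4.97% and 5.89% against 2.72% and 3.05%. Against the flanking windows all 5 passed Fisher's exact test in both replicates, with adjusted p values of at most 0.00764. Against the other peaks of the lists the RUNX, TEAD, E-box and TGTTTGC shares did not pass in either replicate, with 6.64% and 7.27%, 6.61% and 6.30%, 6.04% and 5.19%, and 4.74% and 4.70% in those peaks. Promoter-TSS peaks held RUNX at 2.84% and 2.57%, TEAD at 2.07% and 1.73%, and TGTTTGC at 2.58% and 2.83%. Their E-box share was 10.7% and 10.1%, and all these differences passed (highest adjusted p = 0.00246, Fisher's exact test). In replicate 2 alone TEAD was rarer than at 20 to 100 kb (8.10%, adjusted p = 0.0445, Fisher's exact test). In that replicate alone the E-box was more frequent than beyond 100 kb (2.59%, adjusted p = 2.74e-05, Fisher's exact test). The ETS site was less frequent than in the other peaks, which held it at 5.93% and 5.12% (adjusted p = 7.79e-06 and 1.78e-11, Fisher's exact test). Those peaks are a mixture, with 18.0% and 18.4% in promoter-TSS peaks, 1.74% and 1.43% in intergenic peaks 20 to 100 kb away and 0.636% and 0.539% beyond 100 kb. The near-gene intergenic peaks held it more often than the last of these (adjusted p = 0.0108 and 0.000608, Fisher's exact test) and did not pass against those 20 to 100 kb away (adjusted p = 0.445 and 0.333, Fisher's exact test). The SOX site ACAATGG (2.37% and 2.57% against 2.49% and 2.44%) and the 8-base CRE TGACGTCA (0.237% and 0.322% against 0.118% and 0.107%) did not pass against the flanking windows in either replicate. The other peaks held the CRE at 0.852% and 0.838% (adjusted p = 0.130 and 0.0347, Fisher's exact test). AGATAA of GATA factors, AGGGGGC from the CTCF motif and the GC box GGGCGG passed against the flanking windows in replicate 2 alone. A match of letters is a description and does not show that the factor was bound.

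Near-gene intergenic peaks held more GC boxes than intergenic peaks beyond 100 kb. The median GC content within 100 bp of the centre was 46.3% in both replicates, against 43.8% and 44.3% at 20 to 100 kb, 41.3% and 40.8% beyond 100 kb, and 63.2% and 63.7% in promoter-TSS peaks. GGGCGG, the GC box of SP factors, stood in 7.57% and 8.15% of the near-gene intergenic peaks, in 5.46% and 4.94% of those 20 to 100 kb away (adjusted p = 0.125 and 3.94e-05, Fisher's exact test over 96 tests) and in 1.40% and 2.10% beyond 100 kb (adjusted p = 3.24e-09 and 6.67e-17). In promoter-TSS peaks the share was 52.9% and 53.7%, a description only. Peaks in CpG islands were barred from the near-gene and the farther intergenic classes alike, but not from the promoter class. The rule thus bears on the GC box difference from promoters, and no meaning is read from it. TGTTTAC stood in 33.9% and 30.7% of peaks at 20 to 100 kb and in 35.8% and 31.8% beyond 100 kb, differences from the near-gene intergenic peaks that did not pass (lowest adjusted p = 0.0875), and in 14.4% and 10.9% of promoter-TSS peaks (adjusted p = 1.90e-27 and 1.64e-64, Fisher's exact test).

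Near-gene intergenic peaks were weaker than promoter-TSS peaks in both replicates. In replicate 2 alone they were stronger than peaks beyond 100 kb and, narrowly, than those 20 to 100 kb away. At or above the list median, 50.1% and 52.3% of the near-gene intergenic peaks scored, beside 52.5% and 50.7% of the whole lists. Promoter-TSS peaks reached 62.0% and 66.6% (adjusted p = 4.07e-09 and 6.52e-26, Fisher's exact test over 40 tests). Peaks beyond 100 kb reached 48.3% in replicate 1 (adjusted p = 0.533) and 43.6% in replicate 2 (adjusted p = 3.35e-07, Fisher's exact test). Peaks 20 to 100 kb away reached 51.9% in replicate 1, above the near-gene intergenic share, and 49.0% in replicate 2. Overlap between replicates was 79.1% and 43.9% for promoter-TSS peaks and 76.9% and 35.9% for near-gene intergenic peaks. It was 74.6% and 32.9% at 20 to 100 kb and 72.6% and 29.8% beyond 100 kb. In replicate 2 the near-gene intergenic share differed from both ends (adjusted p = 5.47e-09 and 0.000159), and in replicate 1 from neither end past Fisher's exact test (adjusted p = 0.223 and 0.0801).

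**Figure D3:**
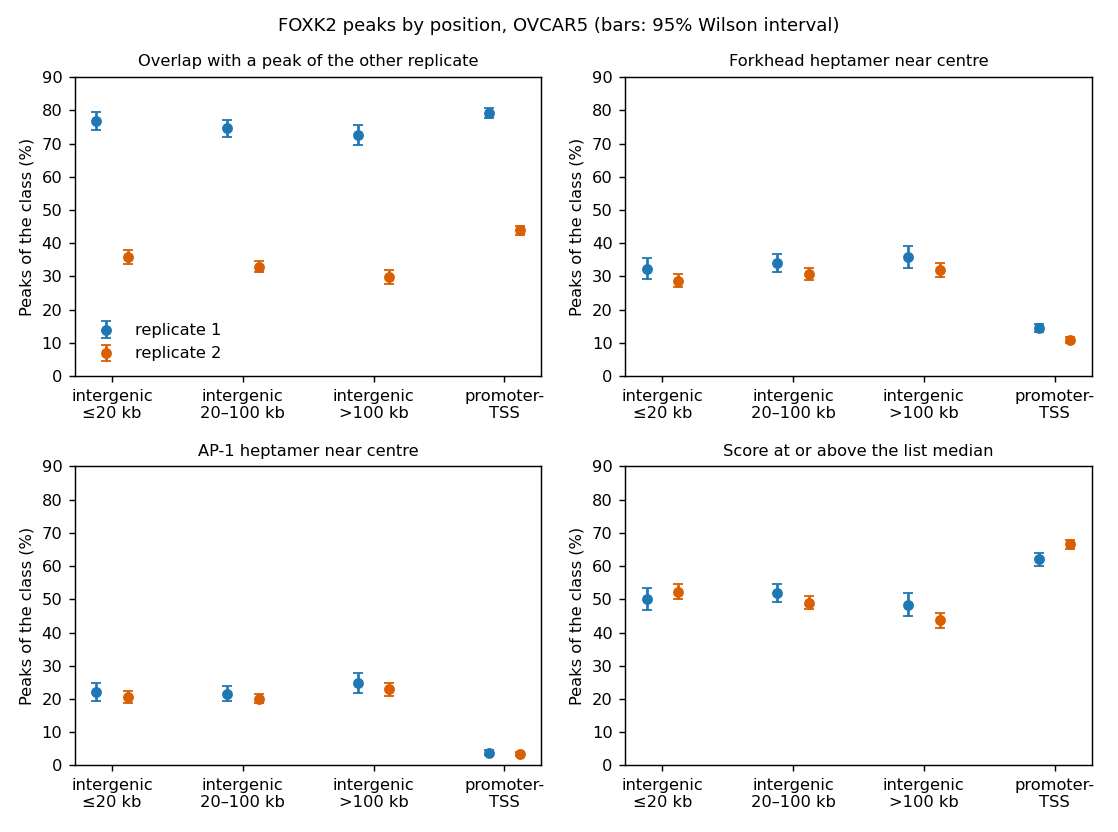
Share of peaks (y axis, %) in 4 classes by position (x axis) that were overlapped by a peak of the other replicate, held the forkhead or the AP-1 heptamer within 100 bp of the centre, or scored at or above the median of their list. Points are the 2 replicates and bars are 95% Wilson intervals, which cover counting error only. The 3 intergenic classes lie close together in the heptamer panels, and promoter-TSS peaks lie apart.

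The peaks lay mainly upstream of the nearest TSS, 667 (78.9%) in replicate 1 and 1480 (79.3%) in replicate 2. At 20 to 100 kb the share was 62.3% and 61.2%, and beyond 100 kb 50.4% and 50.3%. The rule bears on this share, because a place just downstream of a TSS is inside the gene and cannot be called intergenic, so no meaning is read from it. The median distance was 9130 bp and 9480.5 bp, the shortest 1020 bp and 1004 bp. In the 5 kb next to the TSS 201 peaks of replicate 1 lay upstream and 16 downstream, and in replicate 2 the numbers were 428 and 24. Upstream and downstream peaks were not told apart by either heptamer, by overlap or by score (lowest adjusted p = 0.243 over 8 Fisher's exact tests). Peaks within 5 kb of the TSS were at or above the median score more often than those 5 to 20 kb away in replicate 2, 59.7% against 49.9% (adjusted p = 0.00184), while in replicate 1 the shares were 51.2% and 49.7% (adjusted p = 0.831, Fisher's exact test).

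**Figure D4:**
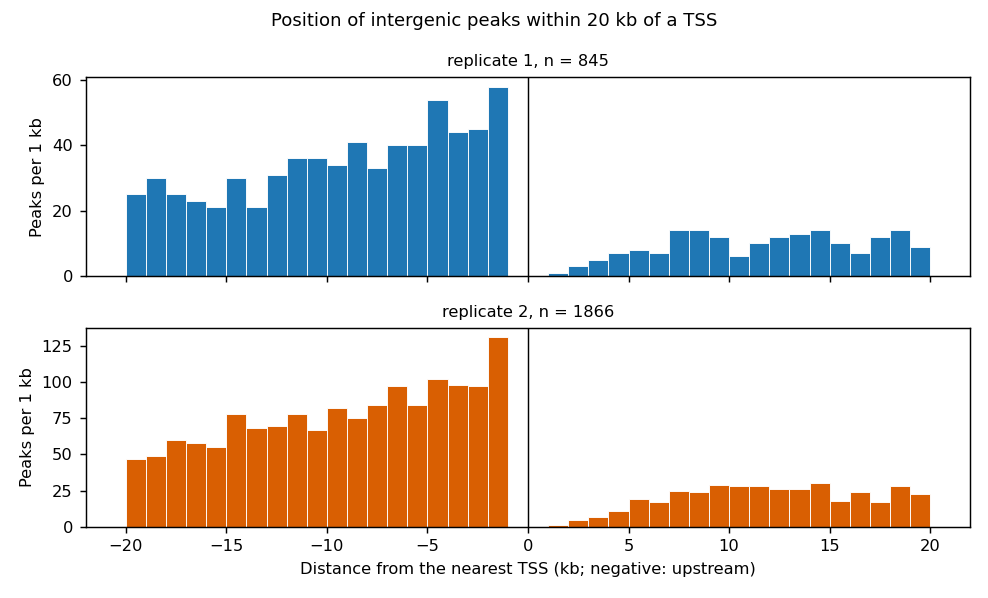
Number of near-gene intergenic peaks in 1 kb bins (y axis) by distance from the nearest TSS in kb (x axis, upstream negative), for replicate 1 (top, 845 peaks) and replicate 2 (bottom, 1866 peaks). Peaks spread over the whole 20 kb upstream, with 667 and 1480 on that side, and are few in the first 5 kb downstream.

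Some of these peaks had neighbours. Another peak of the same list lay within 5 kb for 8.76% of them in replicate 1 and 15.4% in replicate 2. The share was 10.4% and 14.7% for promoter-TSS peaks and 8.83% and 11.8% for peaks of the remaining annotations. Beyond 100 kb it was 4.83% and 7.87%. In replicate 1 the near-gene intergenic share thus lay between those of the other classes. In replicate 2 the near-gene intergenic share exceeded the 10.4% at 20 to 100 kb by 5.01 percentage points (3.04 to 7.03, adjusted p = 1.44e-06, Fisher's exact test), and in replicate 1 the 7.04% there was 1.72 points lower (-0.619 to 4.19, adjusted p = 0.209). With neighbours up to 10000 bp away, a distance chosen after seeing the data, the excess in replicate 1 was 6.61 points (unadjusted p = 8.26e-05, Fisher's exact test). The rule bears on these differences at both distances, so no meaning is read from them. A promoter-TSS peak can lie that near to a peak close to a TSS, but not to one more than 20 kb away. The gene named for the peak also had a promoter-TSS peak for 12.2% and 17.9%, against 11.0% and 16.6% at 20 to 100 kb, which did not pass Fisher's exact test (adjusted p = 0.463 and 0.267).

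The nearest genes were 808 in replicate 1 and 1682 in replicate 2. Protein-coding genes were named for 621 peaks (73.5%) and 1352 (72.5%), and noncoding RNA genes for 196 and 443. A single peak marked 773 and 1520 of the genes. A peak of this kind in both replicates was found for 632 of the 14631 genes named anywhere in the 2 lists (4.32%), and for 601 when only peaks that overlap between the replicates were taken.

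The 12 pairs with the highest mean percentile all ranked within the first 418 peaks of either list. In that group 9 held the forkhead heptamer, 5 of them with an AP-1 heptamer as well. The pair 8677 bp downstream of the start of ASB9P1, a pseudogene, scored 34.0 in replicate 1 and 54.7 in replicate 2, ranks 64 and 117 of their lists. GENCODE placed it within FAM174B, whose nearest start was 5641 bp away. At ABHD4, a lipid hydrolase gene, the pair 16054 bp downstream scored 29.2 and 47.1, and GENCODE held a nearer ABHD4 start, 2755 bp away. The pair 16287 bp upstream of ENTPD6, a nucleoside phosphohydrolase gene, scored 24.9 and 48.8.

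CARD16 encodes an inhibitor of caspase-1, and the pair 2105 bp upstream of it scored 24.3 and 47.0. GENCODE set this pair inside a longer form of CARD16 itself. AHNAK encodes a giant scaffold protein, with a pair 6444 bp upstream that scored 26.2 and 38.1 and likewise lay within the GENCODE gene, 2907 bp from a start of it. The pair 11366 bp upstream of MMD scored 21.9 and 42.7, and no GENCODE gene covered it.

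ESYT1 encodes a protein that tethers the endoplasmic reticulum to the plasma membrane. Its pair lay 1822 bp upstream, scored 21.5 and 39.0, held 1 forkhead heptamer and overlapped an exon of the neighbouring gene ZC3H10. The pair 16759 bp upstream of LINC01447 scored 20.4 and 42.7, with no GENCODE gene over it but a GENCODE start of LINC01447 3320 bp away. DUSP14, a MAP kinase phosphatase gene, had a pair 1372 bp upstream with scores of 22.3 and 33.3 and both heptamers. The pair 3109 bp downstream of MIR1208, a microRNA gene on chromosome 8, lay within the noncoding gene PVT1, scored 18.3 and 41.0 and held both heptamers. PLD1 encodes a phospholipase D that makes phosphatidic acid, and its pair, with scores of 18.7 and 37.0 and neither heptamer, lay in a GENCODE promoter window, 666 bp from a PLD1 start. MOAP1 encodes a partner of the apoptosis protein BAX, with a pair 6723 bp downstream that scored 19.1 and 33.8. Of the 12 pairs, 8 were upstream and 4 downstream.

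A few genes had several such peaks. The noncoding gene LOC105376365 had 3 in each replicate, all 3 overlapping between replicates, in replicate 1 at 2799 bp upstream and at 17825 and 18548 bp downstream. The 2 downstream peaks scored 9.81 and 7.36 in replicate 1 and 17.3 and 13.5 in replicate 2, the nearer with a forkhead and the farther with an AP-1 heptamer, while the upstream peak held both. ADGRF1, an adhesion G protein-coupled receptor gene, had 2 peaks in replicate 1 and 3 in replicate 2. The one 5426 bp upstream scored 12.1 and 25.3 with a forkhead heptamer, and the one 2157 bp upstream scored 8.30 and 10.7 with an AP-1 heptamer. MIR6076 and the pseudogene NACAP1 had 2 peaks in replicate 1 and 4 in replicate 2, with both of the first found again, and those of MIR6076 lay within LINC01588, the 2 shared ones each with a forkhead heptamer. LOC100506178 had 2 and 3, all within STEAP1B, the 2 shared ones with neither heptamer, and LINC01348 had 2 and 3.

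Genes were also looked up in 9 lists for pathways of the factor or the cell, with their share read beside the 4.32% of all named genes. The starvation response genes of FOXO and FOXK factors had a near-gene intergenic peak in both replicates at 5 of the 28 named anywhere (17.9%), namely PDK4, FBXO32, KLF6, TRIB1 and TRIB2. PDK4 encodes the kinase that shuts pyruvate dehydrogenase when glucose is scarce. Its pair 12319 bp upstream scored 10.6 (percentile 86.9) and 30.5 (98.1), held neither heptamer, and lay 17 bp from the GENCODE start of PDK4-AS1, a noncoding RNA. FBXO32 encodes the muscle atrophy ubiquitin ligase atrogin-1, and its pair 7002 bp upstream scored 9.05 and 16.7 with 2 AP-1 heptamers. TRIB1 and TRIB2 encode tribbles pseudokinases. The TRIB1 pair 19529 bp upstream scored 13.8 and 31.1, the highest mean percentile (95.9) of all pairs at listed genes, with an AP-1 heptamer. TRIB2 had 2 pairs, 19046 bp and 7408 bp upstream, with scores of 5.66 and 12.6 at the first and 5.47 and 11.2 at the second, each with a forkhead heptamer.

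Among AP-1 and immediate early genes 5 of 20 (25%) had such a peak in both replicates, FOS, FOSB, IER5, KLF6 and DUSP1. FOS and FOSB encode AP-1 subunits. The FOS pair 11313 bp upstream scored 6.98 and 7.58 and lay 13 bp from the GENCODE start of a noncoding RNA. The FOSB pair 11942 bp upstream scored 9.05 and 13.1 with an AP-1 heptamer, but lay within ERCC1, a DNA repair gene whose start was nearer in GENCODE at 5258 bp. DUSP1, a MAP kinase phosphatase gene, had a pair 5761 bp downstream with scores of 8.11 and 12.6. KLF6, on both lists, had one 18214 bp upstream with scores of 6.98 and 11.5.

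The forkhead family itself had 3 of 17 (17.6%). The FOXJ2 pair 6364 bp upstream scored 9.62 and 13.1 with 2 forkhead heptamers, the FOXO6 pair 19615 bp upstream scored 7.36 and 8.92, and the FOXJ3 pair 4289 bp upstream scored 4.72 and 7.58. A further list held 5 of the genes that the study names as targets or as bound, not all of them, and 1 had a peak in both replicates. It was KLF9, a Kruppel-like transcription factor gene, whose pair 6235 bp upstream scored 13.6 (percentile 93.4) and 30.5 (98.1), held a forkhead heptamer and lay 12 bp from the GENCODE start of a noncoding RNA. ATXN1, another of them, had a peak in replicate 2 alone, with a score of 4.91. The study named those genes while describing these libraries, some of them as targets already known, so this list is not independent of the data.

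Epithelial and ovarian tumor genes had 2 of 18 (11.1%). ELF3, an epithelial ETS factor gene, had pairs 8054 bp and 18670 bp downstream with scores of 10.9 and 25.7 at the first and 4.72 and 8.48 at the second. The CLDN4 pair, 8246 bp upstream of this tight junction gene, scored 4.34 and 6.39. TGF-beta and matrix genes had 1 of 18 (5.56%), THBS1, the gene of the matrix protein thrombospondin-1, with a pair 1375 bp upstream that scored 6.04 and 9.82. Growth factor genes had 1 of 17 (5.88%), CXCL8 with 3.96 and 9.52, and stemness genes 1 of 9 (11.1%), KLF4 with 3.58 and 7.88.

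Unfolded protein response genes had 0 of 15, on a list that held PPP1R15A but not its relative PPP1R15B, which had a pair with scores of 4.72 and 8.18. SERP2, a stress-associated endoplasmic reticulum protein gene also off the list, had a pair with scores of 10.6 and 18.6. The 0 thus holds for the genes of this list alone and does not show that such genes lack these peaks. HSPA5, the gene of the chaperone BiP, had a peak 2136 bp upstream in replicate 1 alone, with a score of 4.34, and SEL1L, a gene of endoplasmic reticulum degradation, had one 2064 bp upstream in replicate 2 alone, with a score of 8.33 and a forkhead heptamer. The median mean percentile of the best pair of a gene was 67.0 over all genes, 85.5 for the starvation response list, 71.0 for the AP-1 list, 66.1 for forkhead genes and 60.6 for epithelial genes. The lists are short and were drawn up with earlier results of these data known, so these shares are counts without a test.

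**Figure D5:**
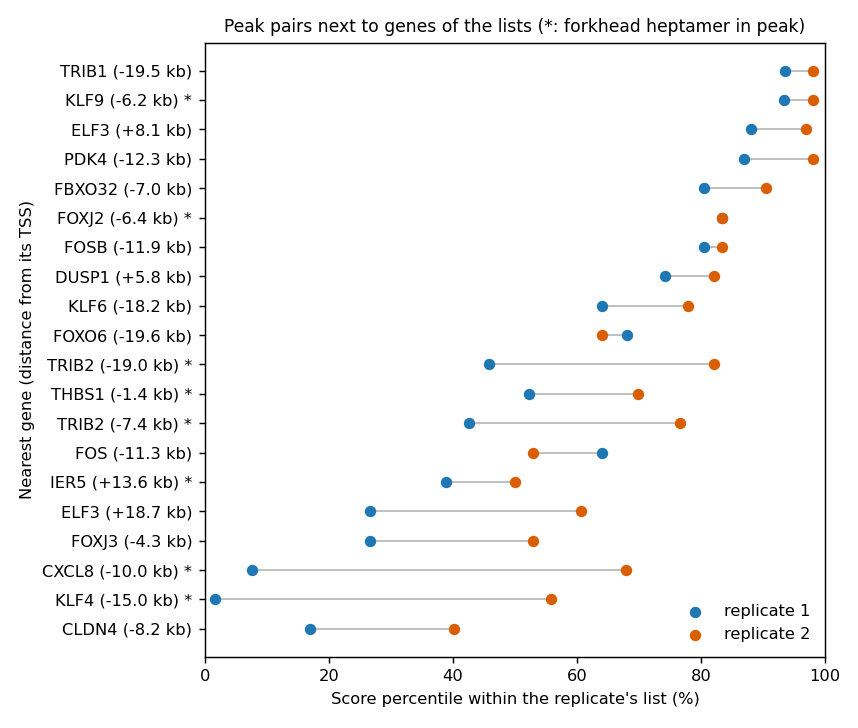
Score percentile (x axis, %) of each overlapping pair of near-gene intergenic peaks at genes of the 9 lists (y axis, with the distance from the TSS in kb), replicate 1 in blue and replicate 2 in orange, joined by a line. TRIB1, KLF9, ELF3 and PDK4 lie highest, and CXCL8 and KLF4 lie below percentile 10 in replicate 1 and above 50 in replicate 2. The lists differ in length, so a shift between replicates is not read as a change.

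Where a pair at a listed gene held the forkhead heptamer, the 27 bases around the copy nearest to the replicate 2 centre are shown in the direction of TGTTTAC, to show what surrounds the core. They come from hg38, at chr9:70420909-70420935 for KLF9, chr12:8026388-8026414 on the minus strand for FOXJ2, chr2:12697781-12697807 on the minus strand and chr2:12709374-12709400 for TRIB2, chr15:39579686-39579712 on the minus strand for THBS1, chr1:181102079-181102105 for IER5, chr4:73730481-73730507 for CXCL8 and chr9:107504690-107504716 on the minus strand for KLF4.
KLF9: tgtggtctccTGTTTACttccctcctc
FOXJ2: gatggtttccTGTTTACtgcctccgaa
TRIB2, farther: ctttgtaacaTGTTTACctgctgggga
THBS1: aacagccaagTGTTTACattcatcaaa
TRIB2, nearer: tttagaaagcTGTTTACttcctggagt
IER5: ggtaattgctTGTTTACtcacttcctg
CXCL8: tttgatgaacTGTTTACaaaccacaga
KLF4: ttgaatttggTGTTTACttgacattta

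The core stood no more than 20 bp from the centre in 7 of these 8 windows, and at KLF4 it stood 62 bp away. Of the 8, 0 had a G right after the core.

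Peaks without a partner of their own class were named after their values were seen. The strongest near-gene intergenic peak of replicate 2, 13178 bp downstream of PPP1R15B, scored 61.4 (rank 77) with a forkhead heptamer. This gene encodes CReP, the constitutive partner of the phosphatase that acts on eIF2alpha. In replicate 1 the overlapping peak, with a score of 22.8 (rank 189), was annotated to a G-rich low-complexity repeat and so fell outside the rule, and GENCODE placed the site inside PPP1R15B. A weaker pair 5512 bp upstream of the gene scored 4.72 and 8.18. Among replicate 2 peaks overlapped by a peak of another class, TSPAN15, WDR74, LINC00880 and LINC01819 followed, with scores of 30.3, 25.4, 24.2 and 21. Each was overlapped by a peak of replicate 1 annotated to a repeat.

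Of the 1197 peaks that replicate 1 did not overlap, the strongest lay 12080 bp downstream of MIR21, the gene of a microRNA abundant in many tumors, with a score of 28.4 (rank 616) and both heptamers. Another peak 14542 bp downstream scored 14.6. Next came MIR5702, CCAT1, MPHOSPH8 and SOCS3, a feedback inhibitor of cytokine signaling, with scores of 26.6, 24.4, 21.9 and 21. In replicate 1 the strongest of the 195 peaks with no partner was near RPL37A, a ribosomal protein gene, at 10.6 (rank 1588). The near-gene intergenic peaks of the 2 lists thus were not nested.

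The limit of 20 kb cut through a continuum. The last pair inside it, 19970 bp upstream of FASLG, the gene of the death ligand of FAS, scored 4.72 and 7.14, and the first pair outside, 20146 bp upstream of LINC01526, scored 6.41 and 11.2.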

How the data were processed

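Per the labels and the study's methods, the authors mapped single-end reads to hg38 with Bowtie2 2.2.6 and called and annotated peaks per replicate with HOMER 4.10. The study set peaks against input in its own statistics, but whether the deposited lists were called against it is not given in the sources used here. The peak score and the focus ratio, a fraction, were used as deposited by the authors, and peak positions, annotations and distances to the TSS likewise. Depth per library was not given and only the tags per peak were read from the score steps. The input libraries were not analysed here.

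Near-gene intergenic peaks and the other classes were taken from the deposited annotation. Peaks overlapping by 1 bp counted as shared. Motif letters were sought in hg38 on both strands, up to 100 bp from the centre, with windows 2000 bp to each side for reference. Shares carry 95% Wilson intervals, differences Newcombe intervals, and 2 shares were compared by a two-sided Fisher's exact test, adjusted by Benjamini-Hochberg within 4 families of 40, 96, 24 and 32 tests. Peaks of a library are not replicates, so these p values cover counting error only, and the lists share most of their strong peaks.

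The members, the AP-1 heptamer and the gene lists were chosen with earlier results of these data known. Some genes of the lists are not reported here and were left out of their counts. Genes named were those of the 12 highest pairs, the 6 with the most such peaks, listed genes with overlapping pairs, and the pairs at the 20 kb edge. Listed genes with a peak in a single replicate and the strongest peaks without a partner were named after their values were seen. Sequences are of the highest pairs off chromosome 8, and that at ESYT1 was left out because it overlaps an annotated exon. Overlap and motif counting was tested on simulated data, 2 sets of 4000 peaks, and the largest error was 0 peaks. Alternatives covered the peaks used, the distance limit, the overlap rule, the motif window and core, and leaving out each replicate. Python 3.11.15, numpy 2.4.6, pandas 2.3.3, scipy 1.17.1, statsmodels 0.14.6, pysam 0.24.0 and matplotlib 3.10.9 were used.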

Additional observations from a re-analysis of the deposited data

How the results depend on the processing

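Of 122 alternative values for 16 tested results, 113 kept their direction and their side of the threshold, and of 22 for 3 counts 12 were within 1.5 times of the count reported. Some could hardly move, since lists of equal length leave the shorter list of replicate 1 uncut. Leaving out peaks off the main chromosomes also drops few peaks. The count of overlapping pairs was entered once per replicate with the same values, so these counts are not all distinct. The overlap difference from the other peaks, which did not pass the test, changed sign to -0.105 percentage points in replicate 1 and -0.531 in replicate 2 with lists of equal length, and to -2.27 in replicate 2 among peaks above the median score. The TGTTTAC difference from the other peaks came to pass the unadjusted test at 5.17 and 3.19 percentage points among peaks above the median score, at 4.39 and 2.82 with the core RYAAAYA, and at 3.86 in replicate 2 with lists of equal length. The excess of peaks with a neighbour over those 20 to 100 kb away passed in replicate 1, at 6.61 points, once a neighbour could lie within 10000 bp, a choice made after seeing the data. The distance limit of the rule bears on that excess, so no meaning is read from it. Leaving out peaks in GENCODE promoter windows, also chosen then, changed no call. The 628 overlapping pairs became 366 above the median score, 337 with a limit of 10 kb and 1130 with a limit of 50 kb, and the 632 genes with a peak in both replicates became 360, 341 and 1103. Without replicate 1 or replicate 2 that count was that of a single list, between 808 and 1682. The cause of these shifts was not tested, except that a smaller or larger limit takes fewer or more peaks by construction. The differences of both heptamers from flanking windows and of TGACTCA from the other peaks held under every alternative tried. No paired analysis was possible because FOXK2 peaks had no input values here to pair with. With 2 replicates of a single condition no difference between conditions could be tested.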
